A study of Mus musculus with 6 samples.

Results

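The genes described here encode enzymes of cholesterol synthesis and other targets of SREBP2, the sterol-regulated transcription factor. They were given as a list of 27 gene symbols, which does not hold every enzyme of the pathway. All 27 matched exactly 1 row each among the 46983 rows of the count table, and 26 had enough counts to be tested beside the 16441 genes that passed the filter on low counts. By role, 8 belong to the mevalonate arm, 3 carry farnesyl units to lanosterol, 9 turn lanosterol into cholesterol, 2 are regulators and 5 are other targets, of which 4 were kept.

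Cells make cholesterol from acetyl-CoA through mevalonate, isoprenoid units, squalene and lanosterol, and the liver is a main site of this synthesis. When sterols in the membrane of the endoplasmic reticulum run low, the escort protein Scap carries SREBP2 to the Golgi, where proteases release its transcription factor part. Insig proteins hold Scap back when sterols are plentiful. The released factor binds sterol regulatory elements in promoters of most enzymes of the pathway, together with the CCAAT-binding factor NF-Y and with Sp1.

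RNA was sequenced from whole livers of 12-week-old, chow-fed, untreated mice on a C57BL/6 background. Knockout mice (AEG-1DHEP) lacked AEG-1, the product of Mtdh, in hepatocytes only, and control mice (AEG-1fl/fl, titled WT) carried the conditional allele without deletion. The labels give 3 adult mice per group. What drove the deletion in hepatocytes is not given in the sources used here, and the other cells of the liver keep the gene. Control replicates 1 and 2 held the same count for every gene, a difference smaller than sampling noise, and were taken as 1 sample, here control replicate 1. This left 3 knockout libraries and 2 distinct control libraries, 5 in all. Library totals ran from 29557477 to 33685670 counts for knockout mice and were 30819997 and 30965664 for control mice. Mtdh had 89, 74 and 76 counts in knockout livers, against 1529 and 1612 counts in control livers, and no library went against its label. The hepatocyte markers, of which 9 of 10 matched a row, summed to 92060 to 103100 counts-per-million (CPM) in knockout livers and 114600 and 84250 CPM in control livers.

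None of the 26 tested genes passed the threshold (adjusted p under 0.05) between knockout and control livers by edgeR's quasi-likelihood test, and the smallest adjusted p was 1.00. Across all 16441 genes that test called 0.00608%, which was Mtdh alone. DESeq2 called 0 of the 26 beside 0.116% of all genes, and limma-voom 0 beside 0.00608%. At an unadjusted p under 0.05, edgeR, DESeq2 and limma-voom each had 1 of the 26 (3.85%), where 3.43%, 3.03% and 3.29% of all genes passed. That gene was Tmem97, higher in knockout livers, as were 1.63% of all genes by edgeR at this p. The log2 fold changes of knockout over control ran from -0.19 to 0.68, and 21 of 26 were above 0 (80.8%, against 52.1% of all genes). Their median was 0.14, beside 0.01 for all genes. That count of 21 depended on single libraries: it was 12 without knockout replicate 2, 9 without control replicate 3 and 25 without control replicate 1, with medians of -0.04, -0.08 and 0.43.

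What the genes shared was a common order of single mice within each group. Control replicate 1 was above control replicate 3 in 24 of 26 genes, beside 50.7% of all genes. Knockout replicate 2 was above knockout replicate 3 in 21 of 26, beside 50.3% of all genes. Both held for 21 of 26 genes and for 26.7% of all genes. Of the 26 group differences, 21 were smaller than the gene's own spread between libraries of a group. That share was not computed over all genes, so it is not shown to be particular to the 26. These pairs of libraries were picked after their values were seen, so the counts are descriptions without a test. Over the count table, libraries were also compared by the size of count differences relative to sampling noise. The control libraries were farthest apart (226.9). Knockout replicate 3 and control replicate 3 differed by 49.4, against 44.5 to 105.9 between knockout libraries. Their TMM factors were 0.951 and 0.954, against 1.026 to 1.040 in the other libraries. Whether the order of the sterol genes is part of this wider difference was not tested.

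**Figure D1:**
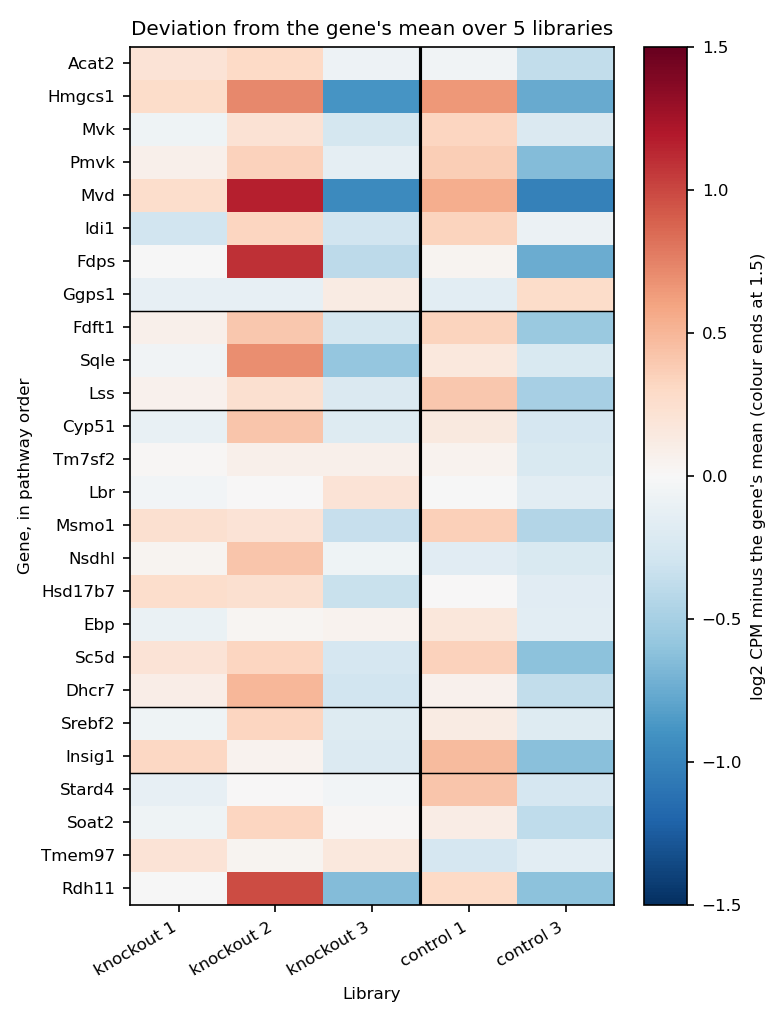
Deviation of log2 CPM from each gene's mean over the 5 distinct libraries, for the 26 kept genes in pathway order (rows) and libraries (columns); colours run from 1.5 below to 1.5 above the mean. Knockout replicate 2 and control replicate 1 are mostly red, knockout replicate 3 and control replicate 3 mostly blue, and rows such as Lbr and Tmem97 stay pale.

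The promoters of 4 genes show the DNA in front of RefSeq starts of genes with a large and with a small spread between mice. They are the pair with the largest and the pair with the smallest spread among the genes with a promoter in RefSeq (build GRCm38.p6) whose 250 bases before the start overlap no annotated exon. Each is printed 5′ to 3′ on the gene's own strand, with matches to the searched motifs in capitals. Hmgcs1 lies on the plus strand and its window is chr13:119690101-119690350. Mvd lies on the minus strand (chr8:122443423-122443672), as do Lbr (chr1:181842402-181842651) and Ebp (chrX:8193513-8193762). The counted row of Lbr spans 181815335 to 181843046, so its window lies inside the gene, before a RefSeq start downstream of the row's own.
Hmgcs1: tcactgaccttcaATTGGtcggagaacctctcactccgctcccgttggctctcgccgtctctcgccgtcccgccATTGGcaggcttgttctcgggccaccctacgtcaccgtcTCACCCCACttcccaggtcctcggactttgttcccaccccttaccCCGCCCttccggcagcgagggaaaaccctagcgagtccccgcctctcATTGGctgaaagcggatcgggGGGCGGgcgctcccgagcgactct
Mvd: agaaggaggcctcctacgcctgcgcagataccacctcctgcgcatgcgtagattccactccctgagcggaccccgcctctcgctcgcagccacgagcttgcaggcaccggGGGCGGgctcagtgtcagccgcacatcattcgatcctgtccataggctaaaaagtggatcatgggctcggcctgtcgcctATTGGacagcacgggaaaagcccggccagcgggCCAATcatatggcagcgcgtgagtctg
Lbr: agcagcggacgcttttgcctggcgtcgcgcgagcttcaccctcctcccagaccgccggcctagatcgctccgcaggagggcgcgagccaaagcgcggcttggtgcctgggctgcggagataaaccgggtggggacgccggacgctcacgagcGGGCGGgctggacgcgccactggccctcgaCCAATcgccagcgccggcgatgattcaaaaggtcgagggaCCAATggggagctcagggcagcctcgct
Ebp: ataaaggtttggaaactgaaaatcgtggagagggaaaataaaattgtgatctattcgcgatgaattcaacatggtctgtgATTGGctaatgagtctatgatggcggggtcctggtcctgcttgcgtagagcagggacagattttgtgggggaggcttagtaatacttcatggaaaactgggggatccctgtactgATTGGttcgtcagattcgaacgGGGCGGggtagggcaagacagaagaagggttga

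The motifs searched, on both strands, were TCACNCCAC (a form of the sterol regulatory element), CCAAT (the NF-Y box), GGGCGG (the GC box bound by Sp1) and CACGTG (an E-box). No matches overlapped each other in the 4 sequences. The Hmgcs1 window holds TCACCCCAC starting 137 bases before the start of transcription, with CCAAT on the other strand (written ATTGG) starting at 237, 176 and 45 bases and GC boxes at 92 and 24 bases. In Mvd the CCAAT matches start 60 and 27 bases before the start and a GC box 140 bases before it. Lbr has CCAAT at 68 and 28 bases and a GC box at 98, and Ebp has them at 170 and 55 and at 33 bases. CCAAT and the GC box were in all 4 windows, those of genes with a large and with a small spread alike. In the longer windows of the listed genes, described next, 80.8% held CCAAT and 73.1% the GC box. Matches in all 4 windows therefore do not relate these motifs to the spread.

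RefSeq windows of 250 bases before to 50 after the start were at hand for 22 of the 27 genes, 26 windows in all. Of these, 21 (80.8%) held CCAAT, against 37.4% of all 32851 windows and 37.4% of the windows of tested genes. The GC box was in 19 (73.1%), against 35.7% of all windows and 58.8% of those of tested genes. The E-box was in 5 (19.2%), against 7.15% of all windows and 9.6% of those of tested genes. TCACNCCAC was in 1 window (3.85%), that of Hmgcs1, against 1.24% of all windows. A match describes the letters only, and no match says only that these letters are not in this window.

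The mevalonate arm makes farnesyl and geranylgeranyl units from acetyl-CoA. None of its 8 genes passed the test between the groups, 5 had a log2 fold change above 0 and 3 below, with a median of 0.11. It held the genes with the widest spread between mice. Hmgcs1, the synthase that makes HMG-CoA (chromosome 13, 119690462 to 119708086 on GRCm38), had 325, 445 and 145 CPM in knockout livers, against 423 and 159 CPM in control livers. Knockout replicate 3 and control replicate 3 were the low pair, the other 3 libraries lay at least 2 times higher, and the groups overlapped. Its log2 fold change was 0.07 (SE 0.54, 95% interval -1.23 to 1.37, edgeR adjusted p 1.00). Mvd, which decarboxylates mevalonate pyrophosphate (chromosome 8, 122433596 to 122443422), had 17.3, 32.3 and 7.41 CPM in knockout livers, against 21.0 and 7.08 CPM in control livers. Knockout replicate 2 was 4.36 times knockout replicate 3, and control replicate 1 was 2.97 times control replicate 3. The group difference of Mvd was 0.43 (SE 0.66, adjusted p 1.00).

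Mvk, Pmvk and Idi1 had a narrower spread than Hmgcs1 and Mvd, with SDs of 0.29, 0.46 and 0.33 on the log2 scale, against 0.89 and 1.08. Mvk, the mevalonate kinase, had 16.1, 19.6 and 14.03 CPM in knockout livers, against 20.97 and 14.5 CPM in control livers. Pmvk, the next kinase, had 45.3, 54.3 and 38.9 CPM in knockout livers, against 55.3 and 27.4 CPM in control livers. Idi1, the isomerase of the isoprenoid unit, had 153, 232 and 153 CPM in knockout livers, against 235 and 174 CPM in control livers. In all 3 of these genes control replicate 1 was the highest library. Ggps1, which makes geranylgeranyl pyrophosphate and so leads away from sterols, went the other way: 5.89, 5.88 and 7.03 CPM in knockout livers, against 5.78 and 7.79 CPM in control livers. Its highest libraries were the ones in which Hmgcs1 and Mvd were lowest, but it had only 181 to 230 counts per library.

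Acat2 and Fdps, the first and a later enzyme of the arm, share sequence with other genes, and their rows may hold only part of their reads. Acat2, a cytosolic thiolase, had 47.8, 50.9 and 39.2 CPM in knockout livers, against 40.1 and 32.0 CPM in control livers, which gave a log2 fold change of 0.35 (SE 0.16, adjusted p 1.00). Its neighbour Acat3 shares 1477 aligned bases at 97.7% identity and held 281, 293 and 251 CPM in knockout livers, against 315 and 266 CPM in control livers. Summed with Acat3, the log2 fold change was -0.02 (SE 0.15, adjusted p 1.00), of opposite sign. Fdps, the farnesyl pyrophosphate synthase, had 23.4, 50.4 and 17.8 CPM in knockout livers, against 24.1 and 14.02 CPM in control livers. It shares 929 bases at 100% identity with Gm43738, which overlaps it on the same strand and had 0 counts in every distinct library. The 3 processed pseudogenes of Fdps with counts (Gm3571, Gm5873 and Gm8163) held 5.96 times as many as the Fdps row, summed over the libraries. With them added, Fdps stood at 180, 268 and 156 CPM in knockout livers, against 180 and 119 CPM in control livers. The log2 fold change was 0.68 (SE 0.47) for the Fdps row alone and 0.43 (SE 0.28) for the sum, neither past the threshold. The value of the Fdps row, the highest of the 26, was 0.11 when knockout replicate 2 was left out and 1.12 when control replicate 1 was.

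**Figure D2:**
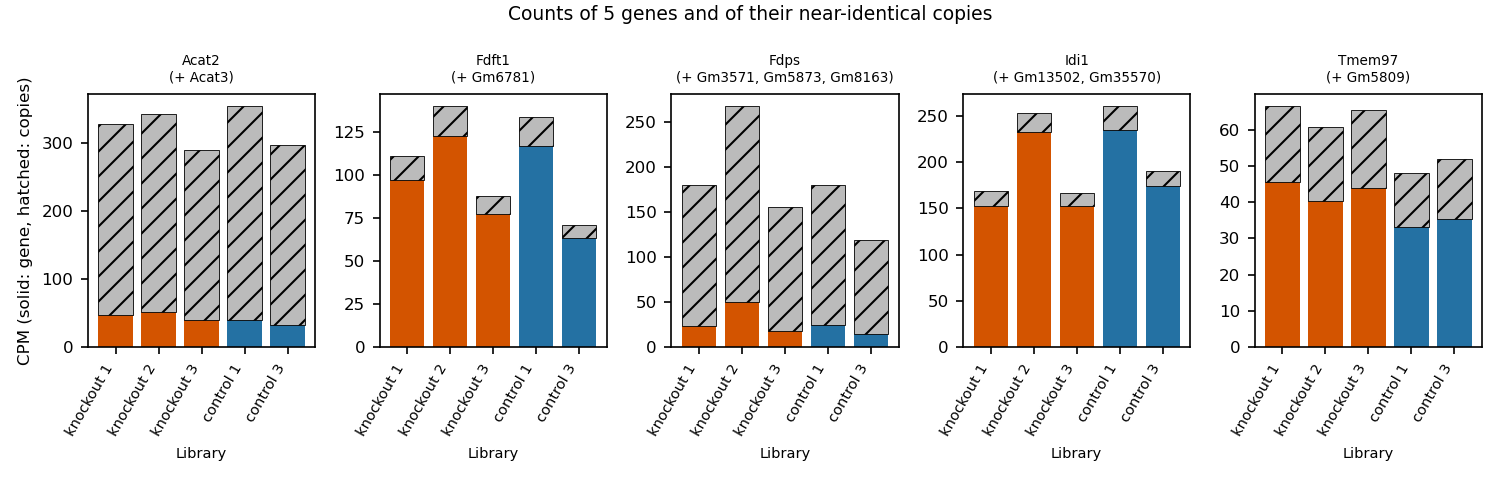
CPM (vertical axis from 0) in each distinct library of 5 genes (solid, knockout in orange and control in blue) and of their near-identical copies (hatched) stacked on top. In Acat2 and Fdps the copies hold most of the counts, and in Fdft1 and Idi1 a small share.

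The 3 enzymes from farnesyl pyrophosphate to lanosterol had log2 fold changes above 0, with a median of 0.14, and none passed. Fdft1, the squalene synthase, had 97.3, 123 and 77.3 CPM in knockout livers, against 117 and 63.1 CPM in control livers. Sqle, the squalene epoxidase, lies on chromosome 15, as do Srebf2, Soat2 and the deleted gene Mtdh. It had 69.7, 117 and 48.4 CPM in knockout livers, against 80.4 and 61.4 CPM in control livers. Lss, which closes the rings to lanosterol, had 70.2, 79.2 and 57.9 CPM in knockout livers, against 88.6 and 47.4 CPM in control livers. In each, control replicate 1 and knockout replicate 2 were the higher libraries of their groups and the groups overlapped. Fdft1 overlaps Ctsb on the other strand and shares 774 bases with it, and the strand setting of the counting is not given in the sources used here.

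From lanosterol to cholesterol, 8 of 9 genes had a log2 fold change above 0 (median 0.15), and none passed. Cyp51, the lanosterol demethylase, had 130, 187 and 122 CPM in knockout livers, against 156 and 118 CPM in control livers. Msmo1, the sterol methyl oxidase, had 192, 187 and 128 CPM in knockout livers, against 209 and 120 CPM in control livers. Sc5d, the sterol desaturase, had the highest level of all 26 genes per length, with a mean of 232 CPM per kilobase of exon (RPKM) in knockout and 207 RPKM in control livers. Its libraries ran at 576, 626 and 420 CPM in the knockout group, against 635 and 328 CPM in the control group. Dhcr7, which reduces the last precursor in one branch, had 85.4, 112 and 65.2 CPM in knockout livers, against 83.0 and 61.7 CPM in control livers. In each of these 4 genes control replicate 1 was above control replicate 3, by ratios of 1.32 to 1.94, and knockout replicate 3 was the lowest of its group.

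Of the other enzymes of this stretch, Tm7sf2, Lbr and Ebp varied least. Tm7sf2 and Lbr both encode sterol C14 reductases, and Lbr is also the lamin B receptor of the nuclear envelope. Tm7sf2 had 108, 112 and 112 CPM in knockout livers, against 110 and 90.9 CPM in control livers. Lbr had 8.56, 8.90 and 10.2 CPM in knockout livers, against 8.79 and 7.89 CPM in control livers, and with 1.94 RPKM in knockout and 1.75 RPKM in control livers it was the lowest of the 26 per length. Ebp, the sterol isomerase, had 135, 149 and 151 CPM in knockout livers, against 164 and 130 CPM in control livers. The spread of these 3 genes within groups (SD 0.12, 0.13 and 0.15 on the log2 scale) was below the median of all genes, 0.20. Hsd17b7, a sterol ketone reductase, had 97.7, 95.7 and 64.3 CPM in knockout livers, against 81.5 and 71.9 CPM in control livers. Its spread, with an SD of 0.29, was above that median. Tm7sf2 shares 532 bases with the overlapping gene Vps51, so its counts are uncertain.

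Nsdhl, the sterol dehydrogenase that acts after Msmo1, was 1 of 2 genes whose groups did not overlap. It lies on chromosome X (72918557 to 72958514 on GRCm38) and had 71.3, 92.6 and 66.3 CPM in knockout livers, against 61.5 and 59.2 CPM in control livers. All knockout libraries lay above both controls, knockout replicate 3 by little. The log2 fold change was 0.35 (SE 0.17), with an unadjusted p of 0.079 and an edgeR adjusted p of 1.00. Tmem97, a sterol-binding membrane protein also known as the sigma-2 receptor, was the other. It lies on chromosome 11 (78541817 to 78550777) and had 45.4, 40.3 and 43.9 CPM in knockout livers, against 33.0 and 35.3 CPM in control livers. Here the mice of a group lay close together, and no gene of the 26 had a smaller spread within groups (SD 0.08). The log2 fold change was 0.34 (SE 0.11, 95% interval 0.08 to 0.60), with an unadjusted p of 0.018 and an edgeR adjusted p of 1.00. Its processed pseudogene Gm5809 had 21.03, 20.4 and 21.3 CPM in knockout livers, against 15.1 and 16.6 CPM in control livers. The sum of the pair gave 0.36 (SE 0.11, adjusted p 1.00). Over the 13 other fits the value for Tmem97 stayed between 0.29 and 0.39, and the adjusted p between 0.363 and 1.00. Groups without overlap and with knockout on top were 2 of 26 (7.69%), against 8.16% of all genes, and with knockout below 0 of 26, against 8.72%, so the count was near the background.

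The regulators had the order of mice seen in most enzymes. Srebf2, which encodes SREBP2 and is one of its own targets, had 44.7, 58.4 and 40.5 CPM in knockout livers, against 50.7 and 40.6 CPM in control livers. Insig1, the anchor protein that SREBP2 itself induces, had 271, 228 and 190.5 CPM in knockout livers, against 305 and 142 CPM in control livers. For both, control replicate 1 was above control replicate 3 and knockout replicate 3 was the lowest of its group. Their log2 fold changes were 0.07 (SE 0.19) for Srebf2 and 0.04 (SE 0.32) for Insig1, both with an edgeR adjusted p of 1.00. The row of Srebf2 also spans Mir33, the microRNA in its intron.

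The other targets bind, move or store sterols, except Rdh11, a retinal reductase. Rdh11 had 64.6, 128 and 41.3 CPM in knockout livers, against 79.5 and 42.1 CPM in control livers. It followed Hmgcs1 and Mvd in the order of the mice and had the next widest spread (SD 0.77 on the log2 scale). Soat2, which esterifies cholesterol, had 41.1, 53.7 and 43.3 CPM in knockout livers, against 46.2 and 32.8 CPM in control livers. Stard4, a carrier of sterol between membranes, had 183, 199 and 194 CPM in knockout livers, against 264 and 167 CPM in control livers, so its spread lay in the controls. Npc1l1, the sterol importer of the intestine, did not pass the filter. It had 1 count in control replicate 1 and 0 in each other distinct library. A count of 0 allows up to 3 counts. By raw library totals, without TMM scaling, these correspond to 0.0891 to 0.101 CPM in knockout livers and 0.0969 CPM in control replicate 3.

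**Figure D3:**
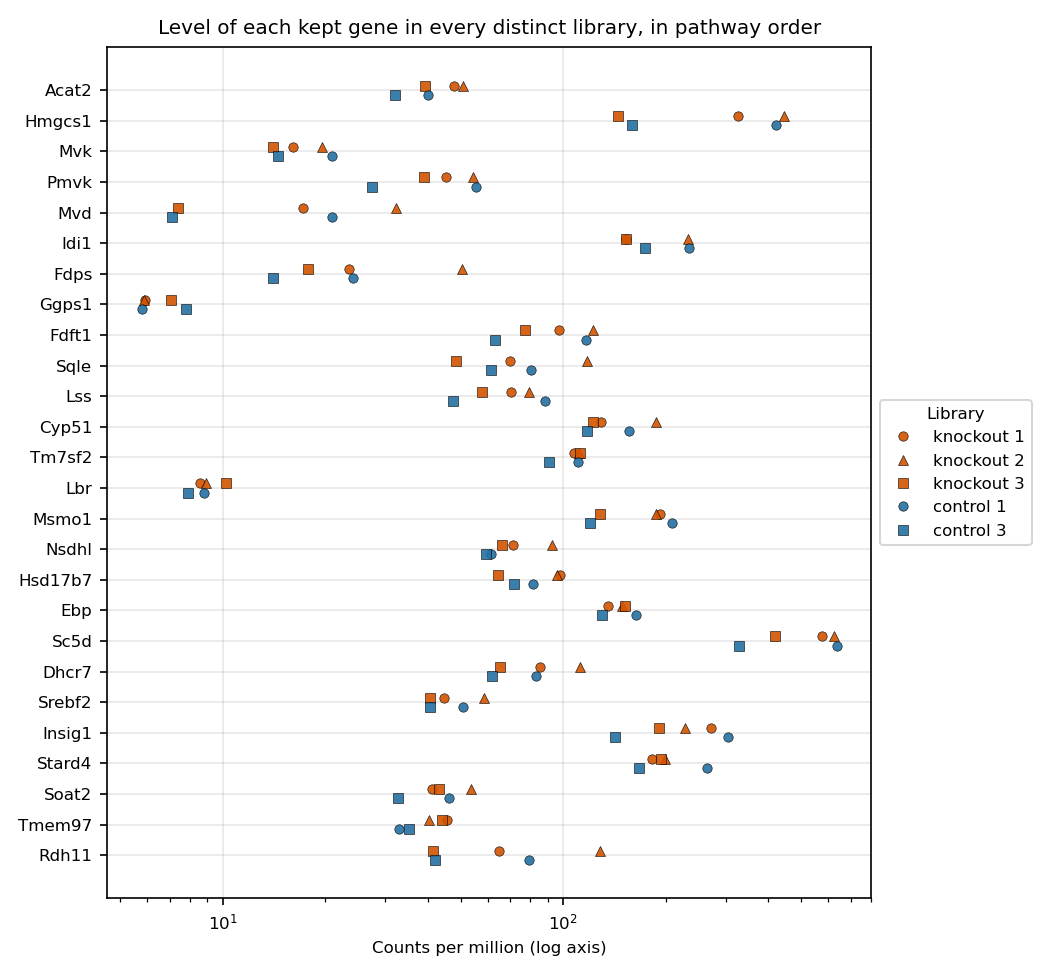
CPM on a log axis of the 26 kept genes in pathway order, 1 point per distinct library, knockout (orange) above control (blue) within each row. The squares, knockout replicate 3 and control replicate 3, form the low end of most rows, as for Hmgcs1 at 145 and 159 CPM.

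The mean size of the order differed between stages of the pathway, and the spread differed widely between genes of a stage. Within the mevalonate arm the SD (log2) ran from 0.21 for Acat2 to 1.08 for Mvd. From lanosterol to cholesterol it ran from 0.12 for Tm7sf2 to 0.46 for Sc5d. The mean deviation from the genes' own averages in the mevalonate arm was 0.04, 0.50 and -0.36 (log2) in knockout livers, against 0.26 and -0.45 in control livers. For the 3 genes from farnesyl pyrophosphate to lanosterol it was 0.03, 0.45 and -0.35 in knockout livers, against 0.30 and -0.43 in control livers. For the 9 genes from lanosterol to cholesterol it was 0.07, 0.24 and -0.13 in knockout livers, against 0.11 and -0.29 in control livers. Over all 26 genes it was 0.05, 0.36 and -0.23 in knockout livers, against 0.20 and -0.37 in control livers. Summed CPM of the 26 were 2924, 3488 and 2298 in knockout livers, against 3398 and 2056 in control livers. The lowest and the highest library of all thus came one from each group.

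Control replicate 1 was at least 1.5 times control replicate 3 for 11 of 26 genes (42.3%), against 9.23% of all genes. Knockout replicate 2 was at least 1.5 times knockout replicate 3 for 9 of 26 (34.6%), against 11.5% of all genes. Both ratios were reached by 5 genes (19.2%), against 2.59% of all genes, and these were Hmgcs1, Mvd, Fdps, Fdft1 and Rdh11, named after their values were seen. The knockout libraries stood in the order 2, 1, 3 for 16 of 26 genes (61.5%), against 21.5% of all genes. Ggps1, Tm7sf2, Lbr, Ebp and Tmem97 were the 5 genes that did not have both control replicate 1 and knockout replicate 2 on top of replicate 3 of their group. As the members of one regulated pathway, the genes are not independent of each other, and each ratio compares 2 mice.

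**Figure D4:**
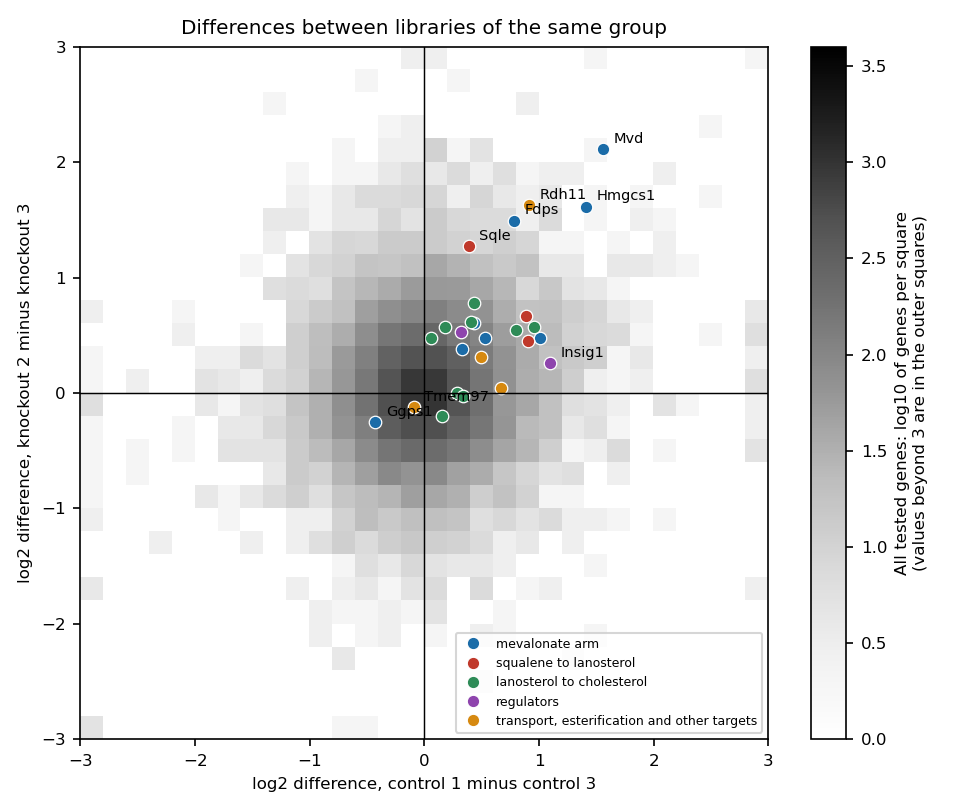
log2 difference of control replicate 1 minus control replicate 3 (horizontal) and of knockout replicate 2 minus knockout replicate 3 (vertical) for the 26 genes (coloured by role) over the density of all tested genes (grey squares). Of the 26 points, 21 lie in the upper right quadrant, with Mvd, Hmgcs1, Rdh11 and Fdps farthest out.

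Set against single libraries of the other group, the direction turned with the mouse chosen. The median over the 26 genes was -0.18, 0.07 and -0.44 (log2) for knockout replicates 1, 2 and 3 over control replicate 1. Over control replicate 3 it was 0.40, 0.67 and 0.19. Of the 26 genes, 6, 17 and 5 were higher in knockout replicates 1, 2 and 3 than in control replicate 1, and 24, 25 and 18 were higher than in control replicate 3. Knockout replicates 1 and 3 were thus mostly below one control mouse and mostly above the other, while knockout replicate 2 was above each of them in most genes. Medians over all genes lay between -0.01 and 0.01 in these 6 pairs.

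The width of the intervals sets what the comparison could show. For 22 of 26 genes the 95% interval of the group difference stayed within 1 of 0 on the log2 scale (84.6%), against 74.8% of all genes. The 4 exceptions were Hmgcs1, Mvd, Fdps and Rdh11, for which a log2 fold change of 1 lay within the interval. The median half-width was 0.56 for the 26 genes and 0.46 for all genes. The spread within groups was above the all-gene median for 22 of 26 genes, with a median SD of 0.33 on the log2 scale. A p-value of 1.00 here does not show that the groups were alike.

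**Figure D5:**
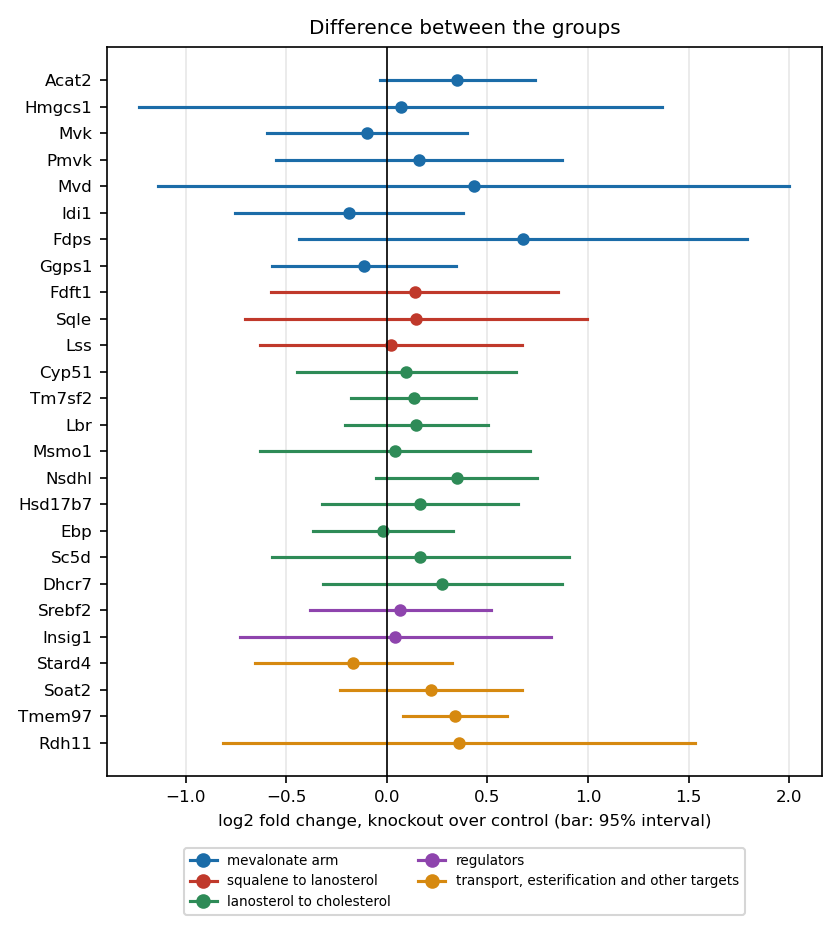
log2 fold change of knockout over control (points) with its 95% interval (bars) for the 26 genes in pathway order, coloured by role. All intervals but that of Tmem97 (0.08 to 0.60) contain 0, and those of Mvd and Hmgcs1 are the widest.

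Genes around the pathway gave 0 calls by edgeR among 61 tested in 6 further lists, as by DESeq2 and limma-voom, and 2 of 61 had an unadjusted edgeR p under 0.05 (3.28%, against 3.43% of all genes). The order of mice with control replicate 1 and knockout replicate 2 above replicate 3 held for 19 of the 61 (31.1%), against 26.7% of all genes, and by list for 2 of 12 to 6 of 10. In sterol sensing and SREBP processing, 4 of 12 had a log2 fold change above 0 (median -0.04). Srebf1, which encodes SREBP1, the factor of fatty acid synthesis, had 644, 345.5 and 632 CPM in knockout livers, against 389 and 442 CPM in control livers. It was lowest in knockout replicate 2, where Srebf2 was highest, and its log2 fold change was 0.38 (SE 0.28, adjusted p 1.00). Erlin1, a protein that binds SREBP complexes in the endoplasmic reticulum, had 63.4, 64.5 and 58.8 CPM in knockout livers, against 92.3 and 56.3 CPM in control livers. Insig2, the second Insig protein, was named after its values were seen, with 124, 349 and 51.9 CPM in knockout livers, against 96.5 and 182 CPM in control livers. Unlike Insig1, it was lower in control replicate 1 than in control replicate 3, and its log2 fold change was 0.33 (SE 0.73, adjusted p 1.00).

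In acetyl-CoA supply and the ketone branch, all 7 genes had a log2 fold change above 0, with a median of 0.26 and 0 past the threshold. Acly, which makes cytosolic acetyl-CoA from citrate, had 609, 486 and 413 CPM in knockout livers, against 360 and 365 CPM in control livers. Acss2, which makes it from acetate, had 263, 310 and 238 CPM in knockout livers, against 227 and 170.0 CPM in control livers. The groups did not overlap in either gene, nor in Slc25a1, the citrate carrier, and the log2 fold changes of Acly and Acss2 were 0.47 (SE 0.19) and 0.44 (SE 0.19), both with an adjusted p of 1.00 by edgeR. The order of mice seen in the sterol genes held for 2 of these 7. Over the 6 lists, groups without overlap and with knockout on top were 8 of 61 (13.1%), against 8.16% of all genes, 3 of them here and 5 in the isoprenoid branch, and with knockout below 1 of 61 (1.64%), against 8.72%.

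In the isoprenoid branch, 8 of 15 genes were above 0 (median 0.04). Rabggta, a subunit of the Rab geranylgeranyl transferase, had 33.1, 33.8 and 33.9 CPM in knockout livers, against 27.2 and 28.0 CPM in control livers, which gave a log2 fold change of 0.28 (SE 0.10, adjusted p 1.00). Fnta, the shared subunit of farnesyl and geranylgeranyl transferase, had 0.16 (SE 0.10, adjusted p 1.00). Of electron donors and sterol carriers, 7 of 8 were above 0 (median 0.16), with 0.25 (SE 0.16) for the cytochrome b5 reductase Cyb5r3 and 0.29 (SE 0.22) for Pgrmc2. In intracellular sterol transport and ester turnover, 6 of 10 were above 0 (median 0.02) and 6 of 10 had that order of mice, with log2 fold changes of 0.33 (SE 0.21) for the lysosomal lipase Lipa and -0.18 (SE 0.21) for Soat1. Of LXR and efflux genes, 4 of 9 were above 0 (median -0.0013), with 0.26 (SE 0.17) for the sterol exporter subunit Abcg5 and -0.15 (SE 0.12) for the lipoprotein receptor Scarb1. None of these 6 genes passed by edgeR, each with an adjusted p of 1.00.

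Markers of other cell types were measured beside the sterol genes, in samples where fewer cells of a type and less RNA per cell cannot be told apart. With the hepatocyte list included, 66 marker genes were tested in 11 lists. Of these, 0 passed by edgeR, DESeq2 or limma-voom, and 9 had an unadjusted edgeR p under 0.05 (13.6%, against 3.43% of all genes). The 10 sinusoidal endothelial markers were all below 0 (median -0.44), with summed levels of 223 to 307 CPM in knockout livers and 289 and 352 CPM in control livers. The 10 Kupffer cell markers were likewise all below 0 (median -0.16), at 305 to 365 CPM in knockout livers and 317 and 412 CPM in control livers. Of the 10 stellate cell markers, 9 were below 0 (median -0.18), at 291 to 396 CPM in knockout livers and 361 and 373 CPM in control livers. The 4 skeletal muscle markers set knockout replicate 1 apart, with sums of 18.3, 0.513 and 1.03 CPM in knockout livers, against 0.565 and 0.915 CPM in control livers. Ckm, the muscle creatine kinase, had 153 counts in that library and 0 in the other 4. Without knockout replicate 1, 20 of the 26 sterol genes had a log2 fold change above 0 and their median was 0.15. The 8 adipocyte markers, of which 5 were kept, summed to 33.5, 41.4 and 16.3 CPM in knockout livers, against 15.7 and 18.6 CPM in control livers. Of these, Adipoq, Lep and Plin1 had at most 1 count in any library. Of the 5 kept, 4 had a log2 fold change above 0 and 1 below (median 1.125), and 2 had an unadjusted edgeR p under 0.05. The 6 erythroid markers summed to 469, 543 and 424 CPM in knockout livers, against 674 and 503 CPM in control livers. The erythroid sum had knockout replicate 2 above 3 and control replicate 1 above 3, as in the sterol genes, and so had the B and plasma cell sum, at 12.9, 22.5 and 16.2 CPM in knockout livers, against 19.2 and 11.3 CPM in control livers. These lists were named after their sums were seen, and no other marker list had that order in its sum. By gene, the order held for 4 of the 5 kept erythroid genes and 5 of 6 B and plasma cell genes. It held for 0 of 10 Kupffer, 1 of 10 endothelial, 4 of 10 stellate and 3 of 9 hepatocyte genes, against 26.7% of all genes. The part of these cells in the values of the sterol genes was not tested.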

How the data were processed

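The authors deposited raw counts per gene as whole numbers, with gene coordinates and summed exon lengths, per the file headers. Tools named in the submitters' processing notes were Subread 1.4.6-p4, featureCounts 1.4.6-p4, Trimmomatic 0.33 and FastQC, with the builds mm10 and GRCm38. For the annotation release, the strand setting and reads with several matches, nothing was given in the sources used here. Symbols came from GENCODE vM21 (46488 of 46983 identifiers matched). Of the 27 listed genes, 20 had the same span in both.

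Genes were kept by edgeR's filterByExpr (16441), scaled by TMM and compared two-sided by the quasi-likelihood F test of edgeR, with Benjamini-Hochberg adjustment over all kept genes and a threshold of 0.05. The design had been written for 3 against 3 libraries with identical control columns counted once, which gave 3 against 2. CPM are scaled by TMM, except in the limit given for Npc1l1, and RPKM are CPM per kilobase of the deposited exon length. SDs on the log2 scale are pooled within groups, from log2 CPM with a prior count of 2. Standard errors were derived from the F statistic. Intervals and limits cover counting error or the spread of these libraries only, since the reads carry no molecular identifiers. The labels call the libraries biological replicates.

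The listed genes and all lists were chosen with earlier results of these data known. Named are Mtdh, every listed gene and the 2 genes of smallest p in each of 6 lists around the pathway. Near-identical copies (at least 95% identity over at least 500 bases) were found with BLAST+ 2.17.0 among GENCODE transcripts. The test was tried on simulated counts. Alternatives were DESeq2 1.42.0, limma 3.58.1 (voom), other scalings, no filter, all 6 columns, a replicate block, summed copies and leaving out each library. Other versions were R 4.3.3, edgeR 4.0.16 and Python 3.11.15.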

Additional observations from a re-analysis of the deposited data

How the results depend on the processing

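None of the 26 genes passed the adjusted threshold in any of the 13 other fits, where their smallest adjusted p was 0.363 (Tmem97, all 6 columns). The count of genes called among all tested was 1 and became 19 by DESeq2 and 3 without a low-count filter, and 1 to 6 when a library was left out (6 without control replicate 3). With one control library left, that library is assumed to vary like the others. The replicate numbers of the labels pair only 2 distinct libraries of each group. Deviations from the group means correlated across genes by 0.060 for number 1 and 0.15 for number 3, the highest value of any combination. With 2 controls, whose deviations mirror each other, these values cannot settle whether the numbers mark pairs. The main fit did not use the numbers. Used as a replicate block, they leave knockout replicate 2 without a partner, so that library adds nothing to the group difference. Leaving it out altogether gave -4.28 for Mtdh and 12 of 26 genes above 0. With the block, 0 genes were called (771 at an unadjusted p under 0.05) and 13 of 26 genes were above 0. The log2 fold change of Mtdh was then -4.28, with an adjusted p of 0.0517 by edgeR. That block gave opposite signs for Hmgcs1 (-0.26), Mvd (-0.12), Sqle (-0.27), Lss (-0.026), Cyp51 (-0.11), Msmo1 (-0.015), Srebf2 (-0.094) and Rdh11 (-0.16). All 6 columns as deposited, which count control replicate 1 doubly, did so for Hmgcs1 (-0.13), Lss (-0.11), Msmo1 (-0.083) and Insig1 (-0.12), with 17 of 26 above 0. Summed copies, added after the data were seen, did so for Acat2 (-0.024).

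Leaving out a library gave 9 to 25 genes above 0 and medians of -0.08 to 0.43. Of the 26 genes, 19 had another sign in at least 1 of the 13 fits and 7 in none (Fdps, Tm7sf2, Lbr, Nsdhl, Hsd17b7, Dhcr7 and Tmem97). The same count was not made over all genes, so it does not set the 26 apart. Without a library, values ran from -0.47 to 0.93 for Hmgcs1, -0.34 to 0.19 for Mvk, -0.26 to 0.75 for Pmvk, -0.19 to 1.42 for Mvd, -0.42 to 0.036 for Idi1, -0.32 to 0.12 for Ggps1, -0.24 to 0.65 for Fdft1, -0.26 to 0.40 for Sqle, -0.36 to 0.54 for Lss, -0.12 to 0.31 for Cyp51, -0.30 to 0.49 for Msmo1, -0.17 to 0.15 for Ebp, -0.23 to 0.71 for Sc5d, -0.10 to 0.23 for Srebf2, -0.40 to 0.69 for Insig1, -0.46 to 0.20 for Stard4, -0.0034 to 0.48 for Soat2, -0.20 to 0.88 for Rdh11 and -0.57 to 0.14 for Erlin1. For Fdps they ran from 0.11 to 1.12, with no turn of sign. The cause was not tested beyond which library was left out. Other scalings kept the sign of all 26.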

Other observations

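Of 6 small intestine markers looked at beside Npc1l1, Alpi and Sis had 0 counts in every library, and Vil1 and Cdh17 had at most 7. Apoa4, which the liver also makes, had 13449, 26663 and 4535 counts in the knockout libraries, against 3752 and 8580 in the control libraries. Fabp2, a fatty acid binding protein, had 3961, 4194 and 2274 counts in the knockout libraries, against 1784 and 1904 in the control libraries. Control replicate 1 was below control replicate 3 for both genes, unlike in 24 of the 26 sterol genes. Neither gene passed the edgeR threshold over all genes, and both were named after their values were seen.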
